A study of Glycine max with 8 samples.

Results

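This account concerns 40 named soybean genes whose transcripts were highest in green, fully grown beans and whose symbols fell outside a list of families left out. Several of them belong to well known groups of seed proteins under other symbols. The members were chosen from the measured values. Arrays were scaled to an equal median, each gene was represented by its brightest probe set that names a single gene, and genes were ranked by the mean of log2(signal + 16) in fully grown beans minus the highest mean of the other 3 stages. Storage globulins, Kunitz inhibitors, seed maturation (PM) and late embryogenesis (LEA) genes, lipoxygenases, heat shock proteins, WRKY, bZIP and MYB factors and several other families were left out by their symbols. The first 40 of the remaining genes were taken, out of 951 measured genes with a symbol, 280 of which belonged to a family left out. The difference between fully grown beans and the other stages therefore chose these genes and is given as a description, without a test.

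The study followed the soybean (Glycine max) cultivar Tamahomare with 8 Affymetrix arrays, 2 for each of 4 stages. The stages were whole pods at the start of pod elongation, pods together with their seeds when the bean was 2 mm long, seeds with beans of 5 mm, and green seeds that were fully grown. No group carried a treatment or a genetic change, and the labels do not say how many plants or seeds went into a sample. Nothing says that replicates came from separate plants, so a p-value here reflects only how far these samples differ, which may be technical variation.

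A growing bean first divides its cells, then fills them with storage protein and oil, and at the end prepares its embryo to lose water and to survive dry. Storage proteins and small inhibitors are sent to vacuoles, where proteases trim them to their final form, and oil is kept in droplets coated by oleosins. Late embryogenesis proteins, dehydrins, metal-binding proteins and enzymes that remove reactive oxygen are known to accumulate as seeds mature. The 40 genes include members of each of these groups beside enzymes of primary metabolism, so they are a collection and not a pathway.

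The deposited signals had medians over tested probe sets between 24.1 and 138 on the 8 arrays, and scaling multiplied the fully grown arrays by 2.13 and 2.59 and the others by 0.453 to 0.991. Of 6 storage protein markers, none was above background on both pod elongation or both bean 2 mm arrays, 3 were at bean 5 mm and 6 in fully grown beans. Their summed scaled signal was at most 25.8 at the first 2 stages, 39.2 and 896 on the bean 5 mm arrays, and 75245 and 83505 in fully grown beans. The summed signal of 3 pod and leaf markers was 9633 and 9704 at pod elongation, 1828 and 3829 with 2 mm beans, 3890 and 4560 with 5 mm beans and 3642 and 4118 once fully grown. It was thus lower at bean 2 mm than in pods, and not lower at bean 5 mm, where the labels no longer name pods. The 3 markers differed between those bean stages. CAB3 was at 1365 and 2004 and then 3225 and 3720, and RCA14 at 225 and 250 and then 361 and 354. VSPA was at 238 and 1575 and then 305 and 486. The sum of 2 seed coat markers was highest at bean 2 mm and bean 5 mm, between 6225 and 7550. That of 3 floral genes was 446 and 418 in pods and 138 and 125 in fully grown beans. This fall was that of AG1 and AP1A, since SEP1 was at 118 and 121 in pods and 114 and 111 in fully grown beans. At bean 2 mm SEP1 was at 211 and 205. The hybridization controls also differed between stages, with a geometric mean of 462 on either pod array, 838 and 839 with 2 mm beans, 475 and 482 with 5 mm beans, and 987 and 1032 for full-sized beans. The ratio of the 3' to the 5' actin probe sets, a sign of RNA quality, was 3.64 and 3.60 with 2 mm beans, 2.73 and 4.80 once fully grown and between 2.05 and 2.22 on the other arrays. Bean 2 mm enters both tested steps, and the part of these differences in the calls was not tested. In such bulk samples a smaller number of cells of a type and less RNA per cell cannot be told apart. Signals below are scaled signals, given for replicate 1 and then replicate 2, and may be set side by side within a gene but not between genes, since probe sets differ in brightness.

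All 40 genes were above background on both fully grown arrays, against 74.8% of all tested probe sets. All also had both of these arrays above every earlier array. The choice compared stage means and so favoured both results without requiring them. The excess over the highest other stage ran from 1.83 to 9.27 on the log2 scale, with a median of 2.79, while the median over all 951 named genes was -0.31. The highest earlier stage was bean 5 mm for 28 of the genes, pod elongation for 6 and bean 2 mm for 6. Before the last stage the genes differed from each other: 23 were above background on all 6 earlier arrays, 14 on some of them, and 3 on none. Above background on both arrays of a stage were 26 in pods, 29 at bean 2 mm and 34 at bean 5 mm. The shares of all tested probe sets were 92.4%, 89.5% and 88.3%, and the choice favoured genes with low earlier signals. The levels on each array are shown in the map of the 40 genes by array.

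**Figure D1:**
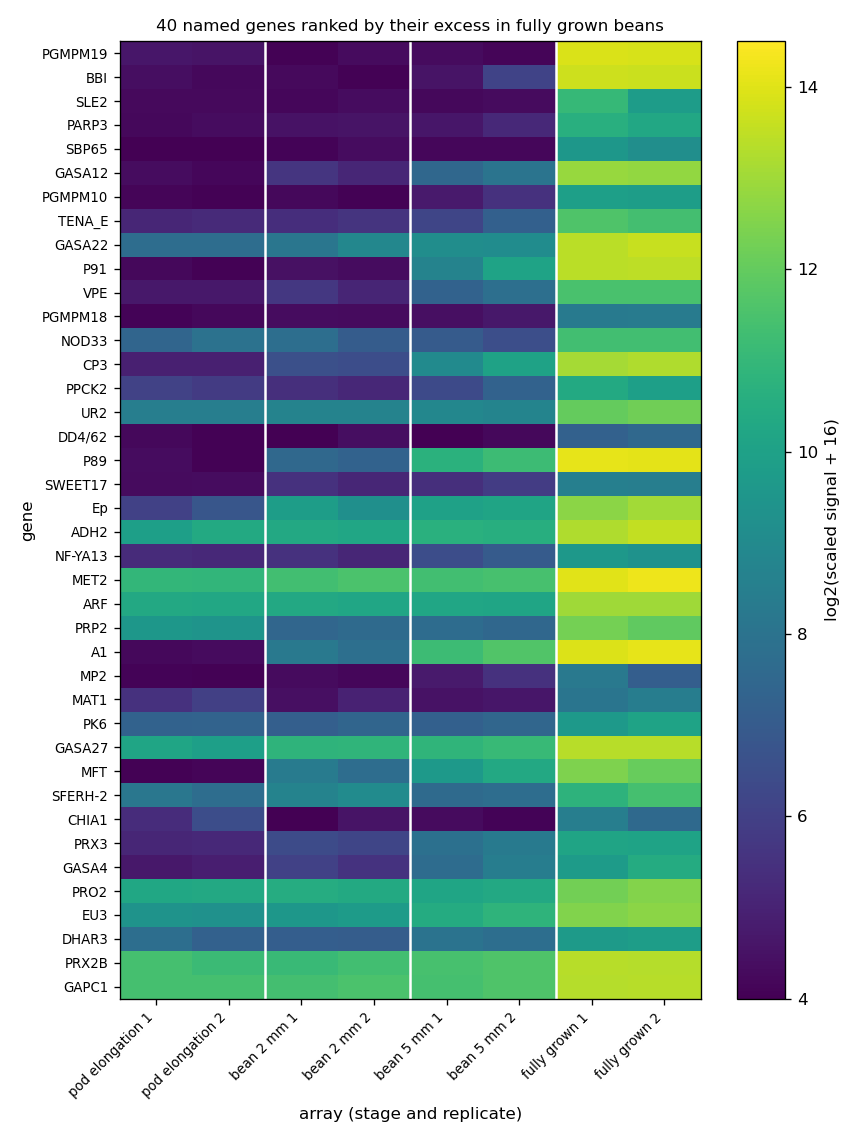
Colour gives log2(scaled signal + 16) of each of the 40 genes (rows, in rank order) on each of the 8 arrays (columns, 2 per stage), and is to be read along a row only. Both fully grown columns are the brightest of every row, while the 6 earlier columns run from dark throughout (SLE2, SBP65, DD4/62) to a steady signal (ARF, PRO2, GAPC1).

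Several of the 40 are proteins of seed maturation and drying that were not left out because their symbols do not start with PM or LEA. PGMPM19, a seed maturation protein by its name, was at 8.95 and 7.61 in elongating pods, 0.478 and 4.03 when beans measured 2 mm, 3.66 and 1.86 when they measured 5 mm, and 15190 and 14807 in full-sized beans. Its pod signals lay just above background and those of both young bean stages below it. The fully grown arrays stood 1818-fold above the pods (ratio of geometric means), and at bean 2 mm the gene was called lower than in pods, by a log2 change of -0.42 ± 0.14 (SE, adjusted p = 0.0377). This call was lost when any single array of the first 3 stages other than bean 2 mm replicate 2 was left out.

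SLE2, which RefSeq also lists as Em and LEA1, encodes a small hydrophilic protein of the late embryo. Its signals were 3.27 and 3.46 in pods, 2.30 and 4.64 in the 2 mm samples, 2.45 and 3.95 in the 5 mm samples, and 2072 and 886 in the fully grown ones. All 6 earlier arrays were below background, so with arrays scaled to an equal median the fully grown level was at least 228-fold higher. SBP65, named for a seed protein that carries biotin, was likewise below background on all 6 earlier arrays, between 0.210 and 4.51. It reached 729 and 569, at least 108-fold higher with the same scaling. Neither gene was called in an early step, and signals below background were not compared further.

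PGMPM10 and PGMPM18 are seed maturation proteins by their names. PGMPM10 was at 1.72 and 0.847 in pods, 2.61 and 0.652 with 2 mm beans, 11.2 and 28.7 with 5 mm beans, and 951 and 914 once the beans were fully grown, and was called higher at bean 5 mm than at bean 2 mm (log2 change 0.99 ± 0.22, adjusted p = 0.018). The bean 2 mm arrays were below background, and the rise was at least 3.01-fold, but the call was lost without either bean 2 mm array or without bean 5 mm replicate 2. PGMPM18 was at 1.28 and 2.48 in pods, 4.20 and 4.00 when beans measured 2 mm, 5.68 and 9.52 when they measured 5 mm, and 301 and 310.3 in full-sized beans, with only 1 of the 6 earlier arrays above background.

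MP2, also listed as PM2, went from 1.17 and 0.615 in pods to 10.8 and 29.3 at bean 5 mm and to 291 and 127 in fully grown beans, and its 2 fully grown arrays were the most unlike of all 40 genes but 1. MAT1, a dehydrin by its RefSeq synonyms, had another course. Its signals were 29.2 and 48.2 in pods, 5.30 and 16.1 in the 2 mm samples, 6.98 and 8.96 in the 5 mm samples, and 258 and 332 in the fully grown ones. The step to bean 2 mm was a fall of 1.04 ± 0.24 on the log2 scale (adjusted p = 0.00743), with bean 2 mm replicate 1 below background, and the call was lost without that array or without pod elongation replicate 2.

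PARP3 and TENA_E carry PM numbers among their synonyms as well. PARP3, a poly(ADP-ribose) polymerase of a family that attaches ADP-ribose to proteins and acts in DNA repair, was at 2.90 and 4.36 in pods, 6.80 and 7.36 with 2 mm beans, 8.98 and 20.9 with 5 mm beans, and 1560 and 1243 once the beans were fully grown. The fully grown arrays stood 102-fold above bean 5 mm. TENA_E, of a family of enzymes that salvage breakdown products of thiamine, was at 19.0 and 22.5, 25.6 and 31.8, 58.0 and 132, and 3071 and 2602 at the 4 stages in order, and was called higher at bean 5 mm than at bean 2 mm (1.23 ± 0.28, adjusted p = 0.0179), a call lost without the same 3 arrays as that of PGMPM10.

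The small secreted and vacuolar proteins and the oil body proteins formed a second set. BBI, a Bowman-Birk inhibitor of digestive proteases, was at 4.83 and 2.91 in pods and 3.12 and 0.485 at bean 2 mm, all below background. It was at 7.71 and 53.7 on the bean 5 mm arrays and at 13308 and 13090 in fully grown beans, 648-fold above bean 5 mm. The 2 bean 5 mm arrays differed more for this gene than for any other of the 40, by 1.56 on the log2 scale, and the step from bean 2 mm was not called (log2 change 1.20 ± 0.39, adjusted p = 0.0652).

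A1, albumin 1, a sulfur-rich seed albumin, was present well before that. Its signals were 2.76 and 4.02 in pods, 289.6 and 213 when beans measured 2 mm, 2340 and 3223 when they measured 5 mm, and 15683 and 17711 in full-sized beans. No stage overlapped the next. From pods, where it was below background, to bean 2 mm the gene rose at least 41-fold (log2 change 3.77 ± 0.18, adjusted p = 1.43e-06), and it rose again at bean 5 mm (3.39 ± 0.18, adjusted p = 7.73e-05).

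P89 and P91 are the A and B isoforms of an oleosin, a protein of the oil droplet surface. P89 was at 4.46 and 0.771 in pods, 170.0 and 143 in the 2 mm samples, 1655 and 2347 in the 5 mm samples, and 17474 and 17160 in the fully grown ones. P91 was at 2.48 and 0.758 in pods, 6.0 and 4.50 with 2 mm beans, 394 and 1071 with 5 mm beans, and 10970 and 11241 once the beans were fully grown. P89 was thus already measured on both bean 2 mm arrays, and P91 on only 1 of them. P89 rose at least 25.8-fold at bean 2 mm (3.22 ± 0.18, adjusted p = 2.62e-06) and again at bean 5 mm (3.53 ± 0.18, adjusted p = 4.83e-05), whereas P91 was called higher in the second step (4.97 ± 0.35, adjusted p = 0.000176) and not in the first (0.27 ± 0.35, adjusted p = 0.567). The difference between the isoforms was not tested, and the probe set of P89 is of a kind that can match several transcripts.

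VPE and CP3 are proteases. VPE, a vacuolar processing enzyme that cleaves seed proteins next to asparagine, was at 9.25 and 9.86 in pods, 35.5 and 18.4 when beans measured 2 mm, 142 and 215 when they measured 5 mm, and 2839 and 2861 in full-sized beans. CP3, a cysteine proteinase also listed as PM33, was at 14.2 and 13.9, 78.0 and 72.2, 507 and 1054, and 8597 and 9625 at the 4 stages in order, on a probe set that can match several transcripts. Both genes rose in both early steps without overlap of arrays. The log2 changes were 0.72 ± 0.22 (adjusted p = 0.0247) and 2.18 ± 0.22 (adjusted p = 0.000625) for VPE and 1.60 ± 0.27 (adjusted p = 0.0014) and 3.04 ± 0.27 (adjusted p = 0.000381) for CP3. The first of the calls for VPE was lost without either pod elongation array or without bean 2 mm replicate 1.

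**Figure D2:**
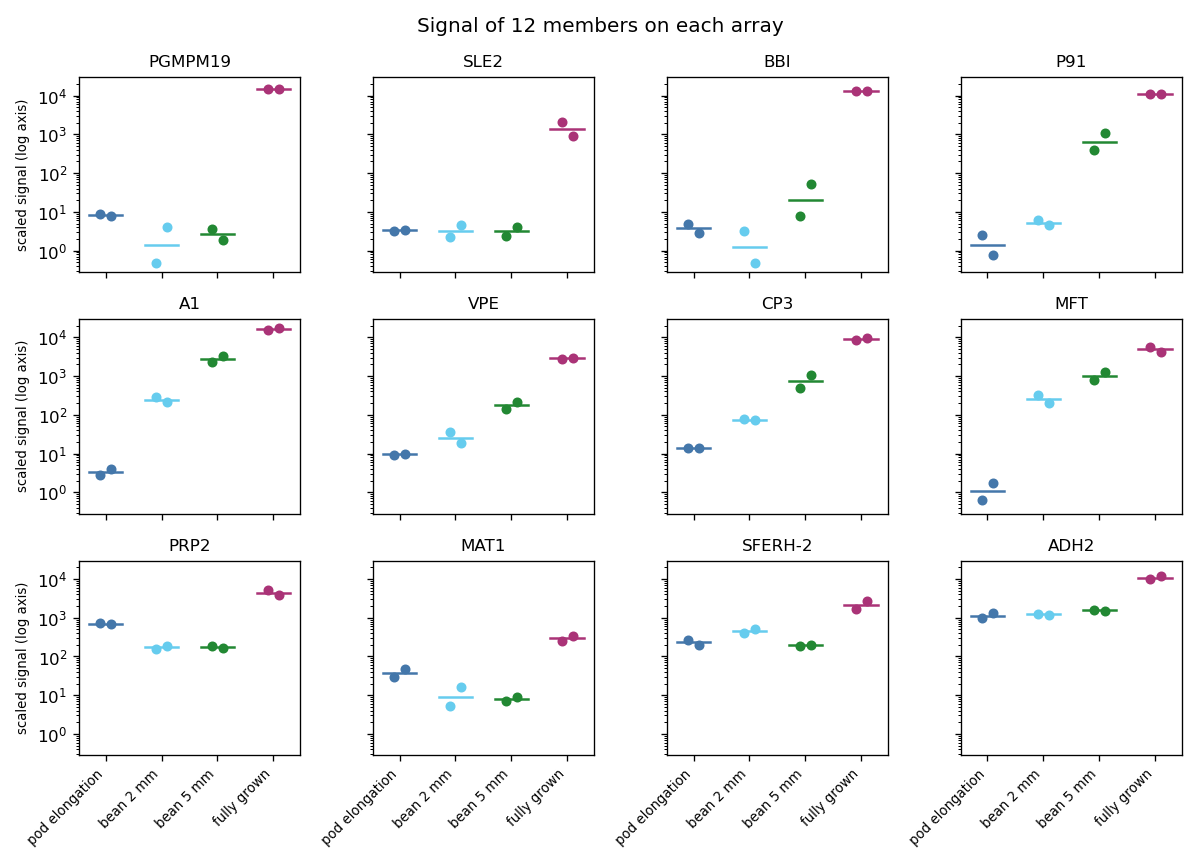
Scaled signal on a log axis of 12 of the genes on each array (points, 2 per stage) with the geometric mean of each stage (lines). PGMPM19 and SLE2 stayed at or near background until the last stage, A1, VPE, CP3 and MFT were higher at each stage than at the one before, PRP2 and MAT1 were lower in young beans than in pods, and ADH2 ran between 958 and 1601 before reaching 9751 and 11928.

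The GASA genes, which encode small cysteine-rich peptides first described as gibberellin-stimulated, supplied 4 of the 40. GASA12 was at 4.61 and 2.27 in pods, 32.8 and 19.0 in the 2 mm samples, 168 and 250.2 in the 5 mm samples, and 7510 and 7090 in the fully grown ones. GASA22 was at 201 and 201, 262 and 445, 554 and 534, and 10974 and 12586 at the 4 stages in order. GASA12 had thus been below background in pods, while GASA22 was measured on every array.

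GASA12 rose in both early steps, at least 4.13-fold in the first (1.09 ± 0.21, adjusted p = 0.00259) and by 2.42 ± 0.21 on the log2 scale in the second (adjusted p = 0.000359). GASA22 rose in the first (0.72 ± 0.21, adjusted p = 0.0183) and missed the threshold in the second (0.64 ± 0.21, adjusted p = 0.0598). The first call of GASA22 was lost without either pod elongation array or without bean 2 mm replicate 2. GASA4 was at 9.80 and 13.2, 49.9 and 30.1, 195 and 338, and 853 and 1394, and rose in both steps (1.0 ± 0.30, adjusted p = 0.0217, and 2.31 ± 0.30, adjusted p = 0.00192), the first of these calls being lost without either pod elongation array or without bean 2 mm replicate 1. GASA27, on a probe set that can match several transcripts, was at 1129 and 971 in pods and at 1785 to 2114 in young beans before reaching 10723 and 10711. It rose in the first step and was not called in the second (0.80 ± 0.13, adjusted p = 0.00106, against 0.11 ± 0.13, adjusted p = 0.598).

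The family as a whole was examined after these 4 were known, and is described without a test. Of 16 measured GASA genes 6 had their highest mean in fully grown beans, 6 in pods, 3 at bean 5 mm and 1 at bean 2 mm. Of all 951 named genes 378 were highest in fully grown beans. GASA11 was at 294 and 421 in pods and at 7.59 and 1.55 in fully grown beans, and GASA33 at 733 and 698 and then at 4.85 and 16.2. GASA9 was at 30.8 and 28.9 in pods, 1016 and 1010 with 5 mm beans, and 133 and 317 once fully grown. The family thus had no common stage of highest signal, but some placings were narrow. GASA3, the one highest at bean 2 mm, was at 1192 and 1273 there and at 1110 and 986 at bean 5 mm. GASA32 counted as highest in fully grown beans with an excess of 0.07 on the log2 scale.

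**Figure D3:**
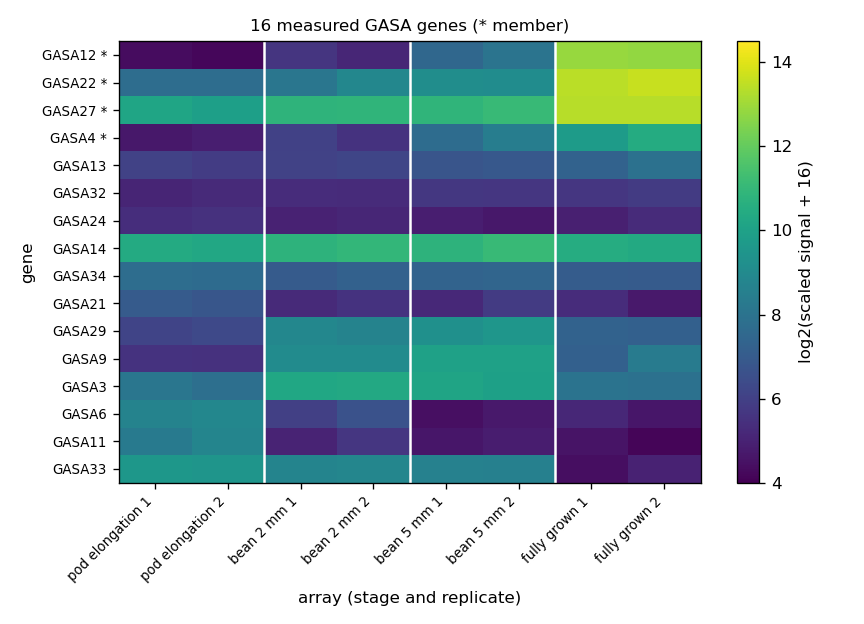
Colour gives log2(scaled signal + 16) of the 16 measured GASA genes (rows, those among the 40 marked with an asterisk) on each of the 8 arrays (columns), to be read along a row. GASA12, GASA22, GASA27 and GASA4 are brightest in the last pair of columns, GASA6, GASA11 and GASA33 in the first pair, and GASA29, GASA9 and GASA3 in the middle.

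Several enzymes of nitrogen and carbon metabolism were among the 40. UR2, uricase, which oxidises urate and is best known from root nodules, was between 343 and 452 on all 6 earlier arrays and at 4126 and 4756 in fully grown beans. EU3, an accessory protein that helps to load urease with nickel, was at 664 and 614 in pods, 727 and 845 with 2 mm beans, 1396 and 1801 with 5 mm beans, and 5808 and 6458 once the beans were fully grown, and rose at bean 5 mm (1.0 ± 0.15, adjusted p = 0.00367). UR2 was not called in either early step.

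PPCK2 encodes a kinase of phosphoenolpyruvate carboxylase, an enzyme that fixes carbon into organic acids. It was at 50.7 and 40.5 in pods, 27.1 and 20.3 when beans measured 2 mm, 67.2 and 142 when they measured 5 mm, and 1298 and 966 in full-sized beans. It rose from bean 2 mm to bean 5 mm (1.53 ± 0.28, adjusted p = 0.00817), a call lost without bean 2 mm replicate 2. ADH2, an alcohol dehydrogenase of fermentation, lay between 958 and 1601 on the 6 earlier arrays and at 9751 and 11928 in fully grown beans, with no call in the early steps. GAPC1, cytosolic glyceraldehyde phosphate dehydrogenase of glycolysis, lay between 2608 and 3116 and then at 10148 and 10597.

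The sugar transporter SWEET17 was at 4.03 and 4.24 in pods, 28.8 and 18.7 in the 2 mm samples, 26.8 and 42.1 in the 5 mm samples, and 349 and 341 in the fully grown ones. It rose at least 3.84-fold from pods, where it was below background, to bean 2 mm (0.97 ± 0.19, adjusted p = 0.00308). The last stage was 10.3-fold above bean 5 mm.

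Among genes of oxygen and metal handling, Ep, the peroxidase of the seed coat, was at 49.8 and 95.5 in pods, 898 and 581 with 2 mm beans, 1002 and 1104 with 5 mm beans, and 6589 and 8535 once the beans were fully grown. Its rise was in the first step (3.11 ± 0.27, adjusted p = 3.31e-05). The 2 seed coat markers, ANR1 and SCB1, summed to 444 and 803 in fully grown beans against 6896 and 7169 at bean 5 mm, lower in the last stage where Ep was higher. PRX3 was at 18.8 and 20.9, 69.4 and 57.5, 221 and 301, and 1114 and 1081 at the 4 stages in order, and rose in both early steps (1.14 ± 0.16, adjusted p = 0.000476, and 1.79 ± 0.16, adjusted p = 0.000381).

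SFERH-2, a ferritin that stores iron, was the only one of the 40 called higher and then lower among the earlier stages, on the probe set that represents it. Its signals were 269 and 197 in pods, 401 and 515 when beans measured 2 mm, 184 and 202 when they measured 5 mm, and 1729 and 2696 in full-sized beans. The rise (0.93 ± 0.23, adjusted p = 0.00857) was lost without pod elongation replicate 2 or bean 2 mm replicate 2, and as the mean over the probe sets of the gene it was 0.28 (adjusted p = 0.269). The fall (-1.17 ± 0.23, adjusted p = 0.0101) was lost without bean 2 mm replicate 2 or either bean 5 mm array. DHAR3, which regenerates ascorbate, lay between 121 and 241 on the earlier arrays and at 832 and 904 in fully grown beans. It rose at bean 5 mm (0.79 ± 0.17, adjusted p = 0.0162), a call lost without any one of the bean 2 mm or bean 5 mm arrays. PRX2B lay between 2173 and 3097 and then at 10723 and 10404, and MET2, on a probe set that can match several transcripts, between 1921 and 2911 and then at 16522 and 19168. MET2 rose slightly at bean 2 mm (0.48 ± 0.13, adjusted p = 0.0168), a call lost without either pod elongation array or without bean 2 mm replicate 2. Over all its probe sets the mean change was 0.25 (adjusted p = 0.0876), and a further set was at 1803 and 1886 in pods against 1488 and 1928 with 2 mm beans.

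The regulators among the 40 were few. MFT, of the family of phosphatidylethanolamine-binding proteins that also holds the flowering signal FT, was at 0.640 and 1.77 in pods, 318 and 197 in the 2 mm samples, 792 and 1260 in the 5 mm samples, and 5727 and 4251 in the fully grown ones. It rose at least 41.4-fold in the first step (3.96 ± 0.26, adjusted p = 6.86e-06) and by 1.93 ± 0.26 on the log2 scale in the second (adjusted p = 0.00253). NF-YA13, a subunit of the CCAAT-binding factor NF-Y, lay between 18.7 and 29.2 at the first 2 stages, at 73.4 and 115 at bean 5 mm and at 758 and 633 in fully grown beans, and rose at bean 5 mm (1.45 ± 0.21, adjusted p = 0.00316). PK6, a protein kinase, lay between 131 and 162 on all 6 earlier arrays and at 783 and 1074 in fully grown beans.

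Cell wall and defence genes and a few others completed the set. PRP2, a proline-rich cell wall protein, was at 743 and 671 in pods, 160.1 and 184 with 2 mm beans, 192 and 165 with 5 mm beans, and 5069 and 3941 once the beans were fully grown. Its fall from pods to bean 2 mm was 1.94 ± 0.15 on the log2 scale (adjusted p = 1.69e-05). CHIA1, a chitinase, was at 24.5 and 74.5 in pods, 0.357 and 7.81 when beans measured 2 mm, 3.99 and 1.09 when they measured 5 mm, and 339 and 179 in full-sized beans, and also fell in that step, by 1.62 ± 0.40 (adjusted p = 0.00922). Only 1 bean 2 mm array measured it, and the call was lost without the other one or without pod elongation replicate 2. The probe sets of both genes can match several transcripts.

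NOD33, a nodulin by its name, lay between 74.8 and 234 on the earlier arrays and at 2564 and 2550 in fully grown beans. PRO2, a profilin that binds actin, lay between 1145 and 1414 and then at 4882 and 6058, and ARF, named here without a role, between 1127 and 1277 and then at 8206 and 8205. DD4/62 was below background on all 6 earlier arrays and at 136 and 172 in fully grown beans, at least 25.7-fold higher with the equal median. None of these 4 was called in an early step, where the signals of the last one, being below background, could not show a change.

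Which of the 40 genes had begun to change before the beans were full was tested in the 2 earlier steps, a contrast that the choice of genes did not use, although that choice favoured genes whose highest earlier stage was low. From pod elongation to bean 2 mm 14 of the 40 were called higher and 4 lower, against 26.5% and 20.4% of all 33625 tested probe sets, 46.9% in either direction (limma, Benjamini-Hochberg adjustment over all of them). The difference between these shares was not tested. The largest rises were those of MFT, A1, P89 and Ep, and the falls were those of PRP2, CHIA1, MAT1 and PGMPM19. The median log2 change was 0.19 for the 40 genes and 0.08 for all tested probe sets. Without pod elongation replicate 2 the counts were 9 higher and 2 lower, and without bean 2 mm replicate 1 they were 12 and 1. The values as deposited gave 25 higher and 3 lower. The call of PGMPM19 was also lost with the values as deposited, after quantile normalization, with a pseudocount of 64 and with a replicate block (adjusted p from 0.0539 to 0.276), and those of VPE and GASA4 with a pseudocount of 64 (adjusted p = 0.134 and 0.163). None of the 4 genes that fell was called in the second step, and CHIA1 and PGMPM19 were below background at bean 5 mm.

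From bean 2 mm to bean 5 mm 15 of the 40 genes were called higher and 1 lower, against 9.29% and 9.49% of all tested probe sets, 18.8% in either direction. The largest rises were those of P91, P89, A1 and CP3, and the fall was that of SFERH-2. The median log2 change was 0.38 for the 40 genes and -0.05 for all tested probe sets. A total of 8 genes, GASA12, VPE, CP3, P89, A1, MFT, PRX3 and GASA4, rose in both steps. The share of all tested probe sets that rose in both is not given here, so this count has nothing to be set against. Another 7 were called higher in the second step and not in the first, and 15 were called in neither. These 15 include the 3 genes that were below background on all 6 earlier arrays. For those genes the lack of a call does not show that they were unchanged, since signals below background cannot show a change. In this step the bean stage, the presence of pod tissue in the sample and the set of arrays for which MAS5 is named changed together and cannot be told apart. The values as deposited gave 14 higher and 13 lower, and lost the calls of TENA_E (adjusted p = 0.0578), EU3 (log2 change 0.059, adjusted p = 0.744) and DHAR3 (log2 change -0.088). With a pseudocount of 64 the call of PGMPM10 was lost (adjusted p = 0.0561).

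**Figure D4:**
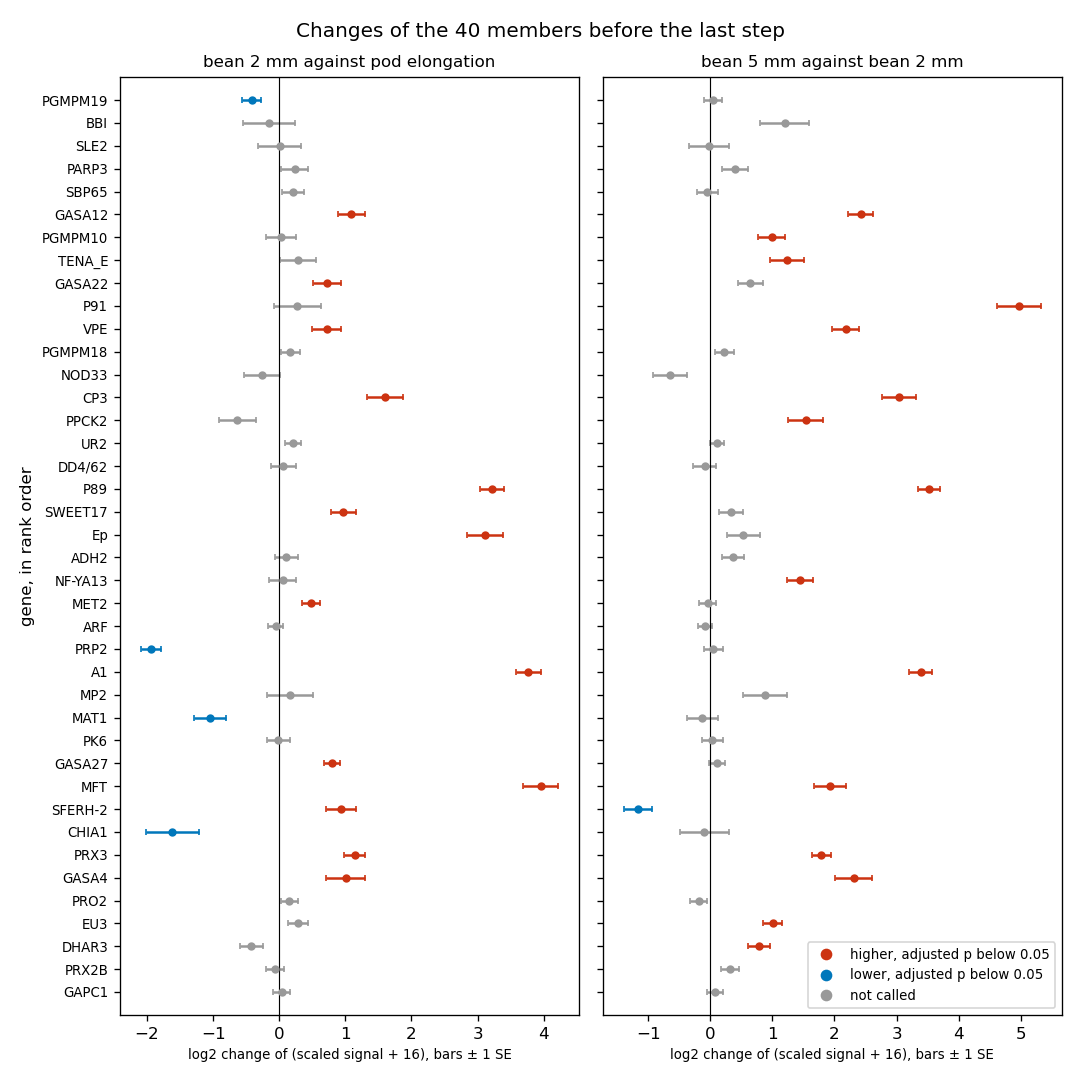
Log2 change of (scaled signal + 16) with 1 SE for each of the 40 genes (in rank order) from pod elongation to bean 2 mm (left) and from bean 2 mm to bean 5 mm (right), 2 arrays per stage, coloured by call. In the left panel 14 genes were called higher and 4 lower, and in the right panel 15 higher and 1 lower.

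The 2 bean 5 mm arrays differed in the same direction for most of the 40 genes. On replicate 2 the signal was higher for 31 of the 40, against 50.2% of all tested probe sets, and the median difference between the replicates was 0.22 on the log2 scale. P91 was at 394 and 1071, CP3 at 507 and 1054, TENA_E at 58.0 and 132 and PPCK2 at 67.2 and 142. The summed storage protein markers were also higher on replicate 2, at 896 against 39.2. Whether this difference between the 2 samples bears on the rises at bean 5 mm was not tested. At the other stages 18, 17 and 19 of the 40 were higher on replicate 2, in pods, at bean 2 mm and in fully grown beans.

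Within fully grown beans the 40 genes had a median absolute difference between replicates of 0.20 on the log2 scale, against 0.27 for all tested probe sets. The most unlike were SLE2, at 2072 and 886, and MP2, at 291 and 127.

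Further probe sets of the same genes were not used in the choice. Of the 40 genes 11 had 18 such sets, and 16 of these were highest in fully grown beans, for 10 of the genes. By their brightest sets 378 of all 951 named genes were highest there. For 15 sets both fully grown arrays lay above every earlier array, and that share over all tested probe sets is not given here. The sets were read on the same arrays with the same scaling. Some, as for ARF, PRP2, GASA27 and SFERH-2, carry the same identifier stem as the chosen set, so they are not independent readouts. The excess on the 16 sets ran from 0.41 to 3.45 on the log2 scale with a median of 1.56, and some were far below that of the chosen set. It was 0.41 against 3.31 for UR2, 0.57 against 2.68 for a set of ARF, and 0.74 against 3.12 for a set of P89. A second set of P89 was at 2.99 and 3.10 in pods, 188 and 185 in the 2 mm samples, 1136 and 2471 in the 5 mm samples, and 12096 and 13706 in the fully grown ones. A second set of PRP2 was at 549 and 480.1 in pods, between 89.1 and 126 in young beans, and at 6429 and 5170 in fully grown beans, the same order of stages as its first. The exceptions were a set of PRX3, at 56.5 and 59.9 with 5 mm beans against 35.3 and 47.4 once fully grown, and a set of SFERH-2, at 98.1 and 150.0 with 2 mm beans against 107 and 88.6 once fully grown. For PRX3, therefore, the excess in fully grown beans rests on 1 of its 2 probe sets, and for SFERH-2 on 3 of its 4.

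How far fully grown beans exceeded the other stages depended on the scaling. With an equal soybean median all 40 genes exceeded the highest other stage, as the choice requires. Quantile normalization left 38 above 0, unscaled deposited values 37 and the hybridization control scaling 30, and the median excess was 2.40, 1.36 and 0.64 on the log2 scale instead of 2.79. Over all 951 named genes the numbers above 0 were 378, 298, 96 and 78 in the same order. PGMPM19 and BBI exceeded the other stages by at least 6.22 under all 4 scalings. PRX2B and GAPC1 were above 0 only with the equal median. PRO2, EU3, DHAR3, SFERH-2, GASA4, PRX3, CHIA1 and MFT lay below the highest other stage with scaling to the hybridization controls. For SLE2, SBP65 and DD4/62 the excess was 6.14, 5.13 and 3.20 with the equal median. It was 4.19, 3.27 and 1.59 with the hybridization controls, so the fold bounds given for them hold for the equal median only.

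**Figure D5:**
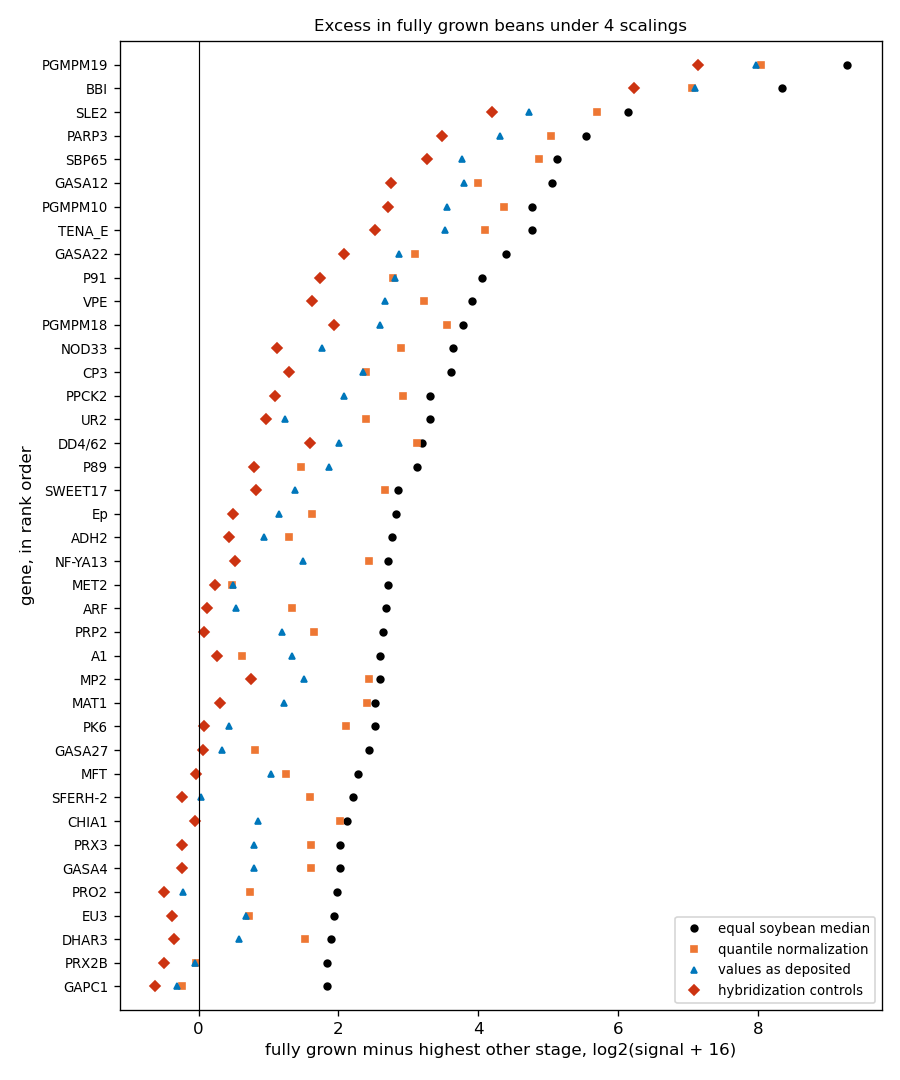
Difference between fully grown beans and the highest other stage on the scale log2(signal + 16) for each of the 40 genes (in rank order) under 4 scalings (symbols). The points of 10 genes, among them MFT, GASA4 and GAPC1, lie below 0 with scaling to the hybridization controls, and those of PGMPM19 lie between 7.14 and 9.27.

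The edge of the selection was gradual. The last genes taken were PRO2, EU3, DHAR3, PRX2B and GAPC1, with an excess of 1.98, 1.94, 1.89, 1.84 and 1.83. The next genes, not taken, were SOD1 with 1.75, DGAT1A with 1.74, NAC19 with 1.73, IPK1 with 1.69 and SCAM-3 with 1.67. SOD1, a superoxide dismutase, was between 838 and 1201 on the earlier arrays and at 3563 and 4271 in fully grown beans, and DGAT1A, an enzyme of the last step of oil synthesis, was between 39.6 and 48.8 and then at 221 and 178.

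Other genes of the same functional groups were listed by symbol, and the counts that follow leave the 40 genes out. They can be read beside the shares of all tested probe sets given above for the early steps, and beside 31.6% called higher and 20.5% lower (52.1% in either direction) from bean 5 mm to fully grown beans. For that last step they are a description, since the genes with the highest excess had been taken out. Most lists hold few genes, and whether any of them differed from all probe sets was not tested.

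Of 6 proteolysis genes other than VPE and CP3, 3 were called higher and 1 lower at bean 2 mm, 2 higher at bean 5 mm, and 3 higher in the last step. VPE2, a vacuolar processing enzyme by its symbol, fell from 213 and 251 in pods to 17.1 and 16.6 at bean 2 mm (-2.91 ± 0.22, adjusted p = 1.6e-05) and was at 320.2 and 411 in fully grown beans, on a probe set that can match several transcripts. CYSP1 and CYSP2, cysteine proteases by symbol, rose at bean 2 mm by 1.99 ± 0.36 (adjusted p = 0.00214) and 2.26 ± 0.42 (adjusted p = 0.00241).

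Of 12 antioxidant and redox genes other than DHAR3, PRX3 and PRX2B, 2 were called higher and 4 lower at bean 2 mm, none at bean 5 mm, and 6 higher and 3 lower in the last step. In that step APX2, an ascorbate peroxidase, fell from 772 and 766 to 75.7 and 161 (-2.62 ± 0.25, adjusted p = 4.03e-05). Of 13 nitrogen and amino acid genes other than UR2, EU3 and MAT1, the last a dehydrin caught by its symbol, 5 were called higher and 2 lower at bean 2 mm, 2 higher and 4 lower at bean 5 mm, and 5 higher and 6 lower in the last step. GS-2, the plastid glutamine synthetase, fell from 1306 and 1168 in pods to 275 and 321 at bean 2 mm (-2.0 ± 0.17, adjusted p = 2.81e-05), and GS1-GAMMA, a cytosolic form, rose from 22.6 and 17.8 to 331 and 343 (3.29 ± 0.16, adjusted p = 1.31e-06).

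Of 10 glycolysis and fermentation genes other than ADH2, GAPC1 and PK6, the last a protein kinase caught by its symbol, 1 was called higher and 2 lower at bean 2 mm, none at bean 5 mm, and 2 higher and 3 lower in the last step. Of 31 other transcription factors by symbol, 8 were called higher and 16 lower at bean 2 mm, 1 higher and 4 lower at bean 5 mm, and 11 higher and 4 lower in the last step. This list had taken in NF-YA13 and, by its symbol alone, ARF, whose role the names used here do not settle. Of 4 abscisic acid and desiccation genes other than SLE2, 1 was called higher and 1 lower at bean 2 mm, none at bean 5 mm, and 4 higher in the last step. Of 13 genes listed as lectins and defence proteins other than SBP65 and CHIA1, which by their stems included SBP2 and the embryo regulator LEC1-A, 3 were called higher and 9 lower at bean 2 mm, 5 higher at bean 5 mm, and 4 higher and 4 lower in the last step. The other 5 lists held none of the 40 genes, and the list of oil body proteins found no gene by its stems although P89 and P91 are oleosins.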

How the data were processed

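Each of the 8 samples had a single-colour array of 37641 soybean probe sets, 23394 probe sets of 2 soybean pathogens and 135 controls. The authors deposited 1 linear intensity per probe set. The submitters' processing notes name MAS5 for the bean 5 mm and fully grown samples. No program for the remaining 4, and no scaling target, is given in the sources used here.

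Background was set on each array at percentile 95 of its pathogen signals, and the 33625 soybean probe sets above it on at least 2 arrays were tested. Arrays were scaled linearly to an equal median over them, and log2(signal + 16) was fitted over all 8 arrays with limma 3.58.1 in R 4.3.3 (eBayes with trend). Adjusted p-values are Benjamini-Hochberg values over all tested probe sets, with a threshold of 0.05. Log2 changes are on this scale, which understates changes of dim genes. Where the dimmer stage was below background on both arrays, the fold is given as a lower bound, which holds for the equal-median scaling only. The number of arrays limits the precision. Gene names came from the platform annotation, in which 8677 probe sets name 1 gene, 370 several and the rest none; 8652 probe sets matched RefSeq (Glycine_max_v4.0). The family stem bZIP was read without regard to case.

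All 40 genes could be named. Values per array were given for the 12 ranked first and for genes called in an early step without overlap, up to the 10 largest changes per step and direction, and by ranges or in full for the others; genes ranked 36 to 45 were given as those around the limit. From each gene list that held a member, up to 3 other genes with the largest called change could be named. The GASA family was added after the members were known. The members and the lists were chosen with earlier results of these data known. Alternatives covered scaling, pseudocount, filter, probe sets, single arrays, thresholds and a block for the replicate number. Motifs and proteins were not analysed here.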

Additional observations from a re-analysis of the deposited data

Results flagged for a closer look

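Probe sets that name several genes were not used to choose the 40 genes or in any comparison, and 2 of them name a member and carried signal in fully grown beans above that of the earlier stages. The set shared by PRX2B and PRX2 averaged 11229 in scaled signal over both fully grown arrays (11389 and 11069), against 2745 to 4073 on the 6 earlier arrays. The set shared by LOC732637 and PGMPM10 had a mean of 576 (708 and 444), against 0.153 to 12.4 on the earlier arrays. Both had both fully grown arrays above all earlier arrays, and neither can be assigned to 1 of its genes.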

How the results depend on the processing

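Each stage had 2 arrays, and the cause of each change below was not tested. Of the 40 genes, 33 to 40 were chosen again under other scalings, pseudocounts, filters and probe sets, 38 to 40 without single arrays, and 39 with bZIP read as spelt, an alternative chosen after seeing the data. From pods to bean 2 mm the 14 higher calls became 25 with the values as deposited and 8 with at least a 2-fold change, and ranged from 9 to 14 without single arrays. The 4 lower calls became 2 without probe sets that may match several transcripts, and ranged from 1 to 4 without single arrays. From bean 2 mm to bean 5 mm the 15 higher calls ranged from 12 to 17 without single arrays. The single lower call became 13 as deposited, 2 after quantile normalization, 2 with the hybridization controls and 0 at an adjusted p below 0.01, and ranged from 0 to 1 without single arrays. Calls held without any single array for 10 of 18 in the first step and 11 of 16 in the second.

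With scaling to the hybridization controls the excess of fully grown beans turned to -0.032 for MFT, -0.23 for SFERH-2, -0.056 for CHIA1, -0.24 for PRX3, -0.24 for GASA4, -0.49 for PRO2, -0.38 for EU3, -0.35 for DHAR3, -0.49 for PRX2B and -0.63 for GAPC1. As deposited it was -0.23 for PRO2, -0.045 for PRX2B and -0.31 for GAPC1, and after quantile normalization -0.042 for PRX2B and -0.24 for GAPC1. The rise of DHAR3 at bean 5 mm turned to -0.088 as deposited.

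Replicates with the same number did not deviate together (correlations of -0.05 to 0.10), so the numbers were not taken as pairing. With the number as a replicate block the counts were 14 higher and 3 lower in the first step and 15 and 1 in the second.

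Over all tested probe sets 15755 were called in the first step, 24420 as deposited, 5639 with at least a 2-fold change and 10539 to 19516 without single arrays. In the second step 6316 were called, 24480 as deposited, 1997 at an adjusted p below 0.01, 1429 with at least a 2-fold change, 9698 with only the 4 arrays of the step, and 1283 to 11440 without single arrays.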

Other observations

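BZIP132, a bZIP factor by its symbol, would have entered the 40 genes in place of GAPC1 had the stem been read as it is spelt. Its scaled signals were 11.0 and 9.996 in pods, 43.0 and 52.9 with 2 mm beans, 107 and 175 with 5 mm beans, and 1848 and 2222 once the beans were fully grown, an excess of 3.74 on the log2 scale over bean 5 mm. It was called higher in the first early step (log2 change 1.27 ± 0.21, limma adjusted p = 0.00113) and again in the second (1.26 ± 0.21, limma adjusted p = 0.00509).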
